A study of Mus musculus with 12 samples.

Results

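The 30 genes described here make and regulate cholesterol: enzymes of the mevalonate pathway and of its sterol branch, the regulators of sterol regulatory element binding proteins (SREBPs), and carriers that move or store sterols. They were followed in livers of adult C57BL/6 mice, wildtype or Socs2-null, without an operation (0 h) or 24 or 36 h after 2/3 hepatectomy, the surgical removal of 2/3 of the liver. Socs2 encodes a suppressor of cytokine signalling that is known for damping growth hormone signalling in liver. Each genotype and time had 2 Affymetrix arrays, 12 in all, and each array was labelled from 10 µg of total RNA pooled from 3 animals. No sham-operated group is among the samples, so time after surgery, anaesthesia and regrowth are 1 variable here. For each gene the probe set annotated to it alone with the highest mean level over the 12 arrays was used, which gave 26 of the 30 genes. Pmvk, Acat2, Soat2 and Abca1 have no such probe set in the annotation used and are not analysed here. Of the 26, 7 belong to the mevalonate and isoprenoid arm (Aacs, Hmgcs1, Mvk, Mvd, Idi1, Fdps, Ggps1) and 11 to the sterol arm (Fdft1, Sqle, Lss, Cyp51, Tm7sf2, Msmo1, Nsdhl, Hsd17b7, Ebp, Sc5d, Dhcr7). Another 5 regulate SREBP or lipoprotein uptake (Srebf2, Scap, Insig1, Insig2, Mylip) and 3 carry sterols (Stard4, Npc1, Npc2).

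Hepatocytes make cholesterol from acetyl-CoA through mevalonate, squalene and lanosterol, and they also take it up from lipoproteins. When sterols run low in the endoplasmic reticulum, SCAP escorts SREBPs to the Golgi, where they are cut and sent to the nucleus to turn on nearly the whole pathway. When sterols are plentiful, INSIG1 and INSIG2 hold SCAP back, and Insig1 is itself an SREBP target whereas the liver form of Insig2 mRNA is known to be governed by other signals, such as insulin and feeding.

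The stretches before the start sites of these genes were searched for known control motifs, and those of 5 genes are printed here. RefSeq promoter windows (build GRCm38.p6, 250 bases before to 50 after each start) were found for 24 of the 30 genes, in 30 windows. All were searched on both strands for the sterol regulatory element TCACNCCAC, for the NF-Y box CCAAT and for the Sp1 box GGGCGG (no matches of different motifs overlap in the stretches printed). The 250 bases before the start are given 5′ to 3′ on the gene's strand, with sterol regulatory elements and NF-Y boxes (CCAAT or its complement ATTGG) in capitals. Insig1 (chr5:28071162-28071411, + strand), Sc5d (chr9:42264301-42264550, − strand), Msmo1 (chr8:64733579-64733828, − strand) and Insig2 (chr1:121332590-121332839 and chr1:121327679-121327928, − strand, the first and the last of its 3 starts in the direction of transcription) are shown as genes called after hepatectomy, and Hmgcs1 (chr13:119690101-119690350, + strand) because it alone held the sterol regulatory element.
Hmgcs1: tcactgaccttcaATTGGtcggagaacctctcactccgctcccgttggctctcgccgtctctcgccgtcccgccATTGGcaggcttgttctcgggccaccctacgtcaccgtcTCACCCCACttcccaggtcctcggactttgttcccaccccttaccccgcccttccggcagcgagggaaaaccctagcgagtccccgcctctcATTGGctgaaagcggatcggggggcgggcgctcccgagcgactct
Insig1: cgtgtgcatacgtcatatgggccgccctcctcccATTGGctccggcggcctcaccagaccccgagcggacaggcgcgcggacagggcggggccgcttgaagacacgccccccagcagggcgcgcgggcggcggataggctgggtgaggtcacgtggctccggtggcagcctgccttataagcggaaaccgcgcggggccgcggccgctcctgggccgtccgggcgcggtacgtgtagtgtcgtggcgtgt
Sc5d: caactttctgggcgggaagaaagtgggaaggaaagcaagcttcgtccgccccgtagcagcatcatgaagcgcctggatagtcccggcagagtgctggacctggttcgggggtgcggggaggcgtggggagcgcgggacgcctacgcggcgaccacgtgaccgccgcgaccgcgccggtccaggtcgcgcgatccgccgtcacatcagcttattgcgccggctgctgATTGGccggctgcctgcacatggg
Msmo1: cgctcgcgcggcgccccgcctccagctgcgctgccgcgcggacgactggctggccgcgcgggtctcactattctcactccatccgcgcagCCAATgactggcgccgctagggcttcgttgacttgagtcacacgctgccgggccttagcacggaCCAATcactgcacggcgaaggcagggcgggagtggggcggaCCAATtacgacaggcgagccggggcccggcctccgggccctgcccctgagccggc
Insig2 first start: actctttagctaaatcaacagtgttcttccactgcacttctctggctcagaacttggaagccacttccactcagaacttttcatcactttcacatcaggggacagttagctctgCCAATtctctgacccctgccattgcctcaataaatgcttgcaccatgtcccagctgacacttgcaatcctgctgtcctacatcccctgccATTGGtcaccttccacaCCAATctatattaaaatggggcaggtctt
Insig2 last start: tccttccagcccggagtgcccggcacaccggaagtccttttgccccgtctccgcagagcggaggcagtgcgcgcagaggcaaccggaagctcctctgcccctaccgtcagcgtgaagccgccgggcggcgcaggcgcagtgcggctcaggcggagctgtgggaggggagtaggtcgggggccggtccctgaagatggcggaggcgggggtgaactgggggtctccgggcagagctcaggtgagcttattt
The element of Hmgcs1, the enzyme that makes HMG-CoA, reads TCACCCCAC and begins 137 bases before the start. The element as searched for, TCACNCCAC, was found in 1.24% of all 32851 mouse windows and in 1 of the 24 member genes. Each of the 5 genes held at least 1 NF-Y box and 1 Sp1 box in its windows. The NF-Y box was in 66.7% of the member windows and in 37.41% of all windows, and the Sp1 box in 80.0% and 35.66%. Between the 2 Insig2 stretches printed, only the one of the first start held NF-Y boxes. A match describes letters in a window and is not a measured binding site. Elements spelled otherwise were not searched for, and Fdps, Fdft1, Sqle, Stard4, Soat2 and Npc1 had no window.

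The values are linear intensities as the authors deposited them, compared as log2(intensity + 16) with limma over 17097 genes. A gene is called where the Benjamini-Hochberg adjusted p over all these genes is under 0.05. Array medians were 43.5 to 52.3, and the 2 arrays of a group correlated at 0.985 or more. Socs2 read 116 to 546 on wildtype arrays and 23.2 to 29.5 on Socs2-null arrays, below the brightest negative control there. Hepatocyte markers were bright on every array, with a summed intensity of 80797 to 82129 at 0 h, 69285 to 75234 at 24 h and 71845 to 75665 at 36 h. Single hepatocyte markers moved in opposite directions, at log2 changes from 0 h of -0.93 to 0.37 at 24 h and -0.28 to 1.69 at 36 h in wildtype liver. In Socs2-null liver these were -0.38 to 0.18 and -0.35 to 0.92. Their differences between genotypes were -0.26 to 0.78 at 24 h and -0.82 to 0.06 at 36 h, and none was called. In whole tissue, fewer cells of a type and less RNA per cell cannot be told apart. Spiked-in hybridization controls moved with time, from a mean log2 level of 9.86 to 9.98 at 0 h to 9.34 to 9.90 at 24 h and 9.01 to 9.23 at 36 h, so that their level and the hours after surgery cannot be told apart. The p-values measure only the spread between 2 pools per group.

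After hepatectomy the sterol genes moved in opposite directions. Insig2 rose in both genotypes, to 4.24 to 5.41 times its level at 0 h. Hsd17b7 rose at 36 h in both and Sqle at 36 h in Socs2-null liver. Srebf2 rose at both times in Socs2-null liver with the probe set used, whereas its other probe set gave -0.13 and -0.18. Insig1, Scap, Npc2 and the sterol enzymes Tm7sf2 and Sc5d fell in all 4 comparisons with 0 h, and Stard4 and Npc1 in 3 of them. In wildtype liver at 24 h, 1 of the 26 genes rose and 10 fell, where 10.2% of all genes rose and 15.6% fell. At 36 h, 2 rose and 8 fell, against 5.69% and 9.50% of all genes. In Socs2-null liver 2 rose and 8 fell at 24 h (all genes 10.8% and 13.5%), and 4 rose and 7 fell at 36 h (9.84% and 10.1%). The comparisons at 24 and 36 h of a genotype share its 0 h arrays. Over all genes the median log2 change lay at -0.08 and -0.06 at 24 and 36 h in wildtype liver and at -0.04 and -0.03 in Socs2-null liver. The median of the 26 was -0.43 and -0.46 in wildtype liver, and -0.17 and 0.29 in Socs2-null liver. Without Socs2-null 36 h replicate 1 the last of these was 0.59, and without replicate 2 it was 0.11. Of the 42 calls, 19 held with each array left out in turn. Without either wildtype 0 h array, Insig2 and Tm7sf2 were the 2 genes called at 36 h in wildtype liver, and without Socs2-null 0 h replicate 1, 4 in place of 11 were called at 36 h in Socs2-null liver. With the hybridization control level as a covariate, Insig2 and Sc5d were the 2 genes called at 36 h in each genotype. The median of the 26 at 36 h was then -0.74 in wildtype and -0.30 in Socs2-null liver, the latter with its sign turned.

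**Figure D1:**
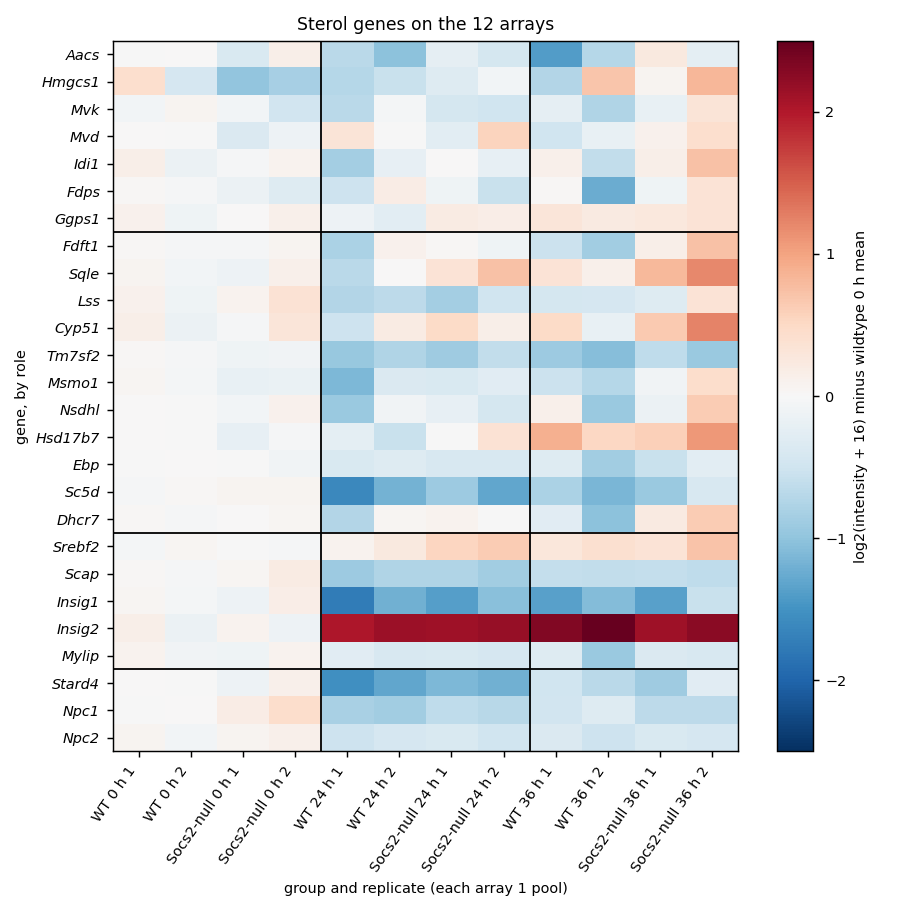
Log2(intensity + 16) of the 26 measured genes on each of the 12 arrays, as the difference from the gene's mean in wildtype (WT) liver at 0 h (colour: red higher, blue lower), with genes by role in rows and arrays by time and genotype in columns. Insig2 is near 0 on the 4 arrays at 0 h and high on the 8 later ones, and Insig1, Scap, Sc5d and Tm7sf2 are low on the 8 later arrays.

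Among the regulators, Insig2 and Insig1 moved apart. Insig2, which encodes a protein that holds SCAP in the endoplasmic reticulum, read 1229 and 999.6 in wildtype against 1185 and 1015 in Socs2-null liver at 0 h, 4571 and 4943 against 4898 and 5069 at 24 h, and 5556 and 6626 against 4854 and 5374 at 36 h. All 8 arrays after surgery were above all 4 arrays at 0 h. In wildtype liver the log2 change from 0 h was 2.08 ± 0.13 at 24 h (adjusted p = 8.59e-06), then 2.44 ± 0.13 after 36 h (adjusted p = 3.53e-06). In Socs2-null liver it was 2.17 ± 0.13 (adjusted p = 6.31e-06) and 2.20 ± 0.13 (adjusted p = 6.04e-06). The 4 calls held under all 23 alternatives, and the gene's 2 other probe sets gave 1.68 to 2.45. Insig1, which does the same for SCAP and is a classic SREBP target, read 2644 and 2487 in wildtype against 2337 and 2884 in Socs2-null liver at 0 h, 749 and 1113 against 981 and 1231 at 24 h, and 996 and 1198 against 989 and 1736 at 36 h. All arrays after surgery were below all arrays at 0 h. In wildtype liver it fell by 1.47 ± 0.26 on the log2 scale at 24 h (adjusted p = 0.00352), then stood at -1.22 ± 0.26 at 36 h (adjusted p = 0.0119). The Socs2-null changes were -1.23 ± 0.26 (adjusted p = 0.00697) and -0.98 ± 0.26 (adjusted p = 0.0234). The wildtype 24 h call held with each array left out. The wildtype 36 h call ended without either wildtype 0 h array or wildtype 36 h replicate 1 (log2 changes -1.26 to -1.09, adjusted p = 0.0552 to 0.0810, of 0.00292 to 0.149 over the 23 alternatives). The Socs2-null call at 24 h ended without Socs2-null 0 h replicate 2 (log2 change -1.08, adjusted p = 0.0580, of 0.00172 to 0.0580 over the 23 alternatives). The one at 36 h ended without either Socs2-null 0 h array or Socs2-null 36 h replicate 1 (log2 changes -1.13 to -0.58, adjusted p = 0.0551 to 0.147, of 0.00541 to 0.154 over the 23 alternatives).

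Scap, the sterol sensor that escorts SREBPs, read 1465 and 1414 in wildtype against 1488 and 1666 in Socs2-null liver at 0 h, 764 and 843 against 854 and 781 at 24 h, and 944 and 937 against 954 and 921 at 36 h. No array after surgery reached the lowest array at 0 h. The log2 changes of Scap at 24 and 36 h were -0.83 ± 0.12 (adjusted p = 0.00111) and -0.61 ± 0.12 (adjusted p = 0.00633) in wildtype liver. In Socs2-null liver they were -0.93 ± 0.12 (adjusted p = 4.00e-04) and -0.74 ± 0.12 (adjusted p = 0.00154). Srebf2, the SREBP that drives cholesterol genes, read 108 and 118 in wildtype against 112 and 110.1 in Socs2-null liver at 0 h, 122 and 137 against 171 and 186 at 24 h, and 141 and 154 against 147 and 197 at 36 h. All 8 arrays after surgery lay above all 4 arrays at 0 h. Its log2 change was called in Socs2-null liver, at 0.61 ± 0.14 (adjusted p = 0.00951) and 0.55 ± 0.14 (adjusted p = 0.0181), and was 0.17 (adjusted p = 0.400) and 0.34 (adjusted p = 0.130) in wildtype liver. A second Srebf2 probe set gave -0.13 and -0.18 in Socs2-null liver, so the direction depends on the probe set. Mylip, a ubiquitin ligase that sends the LDL receptor to degradation, read 368 and 319.8 in wildtype against 319 and 366 in Socs2-null liver at 0 h, 279.9 and 256 against 261 and 254 at 24 h, and 273 and 173 against 263 and 255 at 36 h. Its 8 arrays after surgery were below the 4 at 0 h, and it was called at 36 h in wildtype liver, at -0.62 ± 0.18 (adjusted p = 0.0381). Scap lost its wildtype 36 h call without either wildtype 0 h array (log2 changes -0.63 to -0.58, adjusted p = 0.0594 to 0.0685, of 0.00409 to 0.143 over the 23 alternatives). Mylip lost its call without either wildtype 0 h array, either wildtype 24 h array, wildtype 36 h replicate 2 or either Socs2-null 0 h array (log2 changes -0.72 to -0.31, adjusted p = 0.0517 to 0.280, of 0.00516 to 0.801 over the 23 alternatives). Srebf2 lost its call at 24 h without either Socs2-null 0 h array (log2 changes 0.60 to 0.63, adjusted p = 0.0503 to 0.0605, of 0.00447 to 0.201 over the 23 alternatives). It lost that at 36 h without either Socs2-null 0 h array or Socs2-null 36 h replicate 2 (log2 changes 0.36 to 0.56, adjusted p = 0.0815 to 0.123, of 0.00823 to 0.633 over the 23 alternatives).

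**Figure D2:**
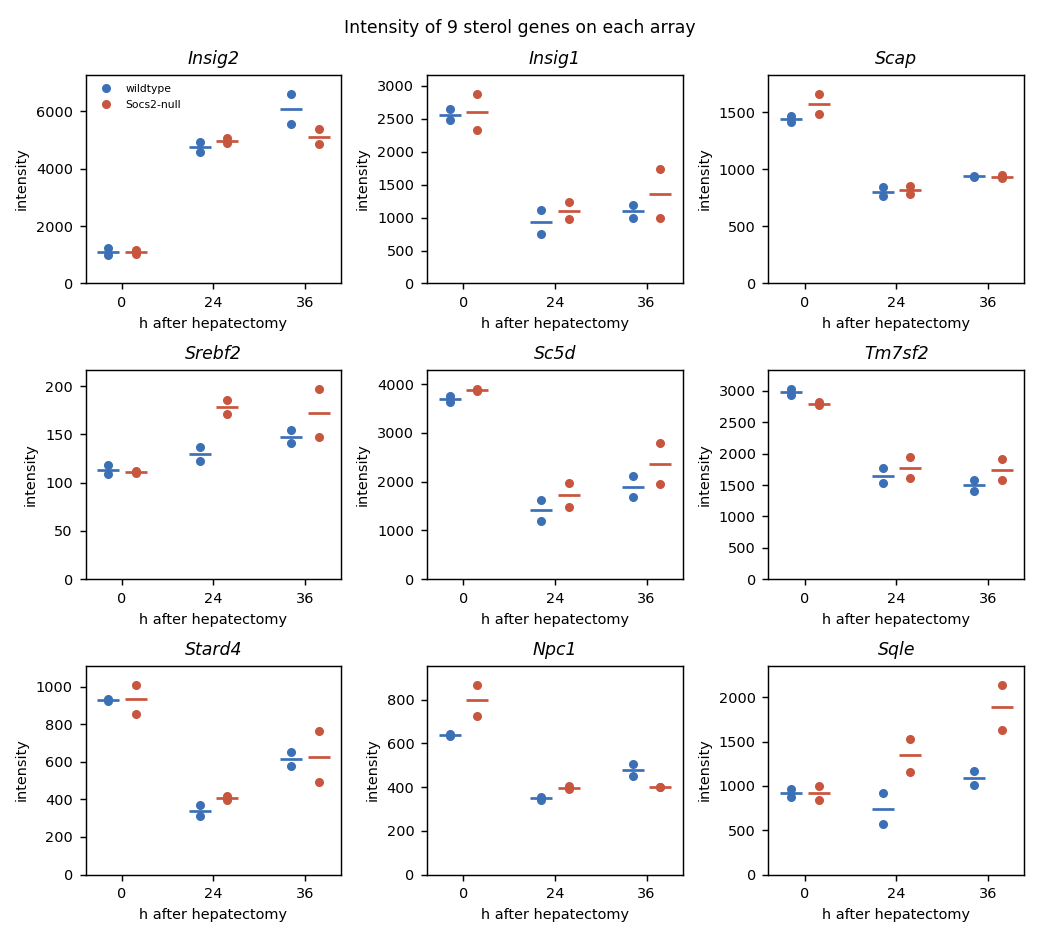
Intensity (linear axis from 0) of 9 sterol genes on the 12 arrays by hours after 2/3 hepatectomy, with 1 point per pool and a short line at each group's mean, wildtype in blue and Socs2-null in red. Insig2 climbs from 999.6 to 1229 at 0 h to 4571 or more on every later array, and Sc5d and Insig1 drop in both genotypes.

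In the sterol arm, which turns farnesyl diphosphate into cholesterol, the mean of each of the 11 enzymes was lower at 24 h than at 0 h in wildtype liver, and 4 were called. Sc5d, the lathosterol oxidase near the end of the pathway, read 3637 and 3769 in wildtype against 3872 and 3903 in Socs2-null liver at 0 h, 1194 and 1625 against 1968 and 1486 at 24 h, and 2119.8 and 1679 against 1945 and 2793 at 36 h. The highest array after surgery, 2793, stayed below the lowest at 0 h, 3637. In wildtype liver Sc5d changed by -1.40 ± 0.20 (adjusted p = 0.00130) and -0.97 ± 0.20 (adjusted p = 0.0100). The Socs2-null values were -1.18 ± 0.20 (adjusted p = 0.00226) and -0.73 ± 0.20 (adjusted p = 0.0258). Its 2 other probe sets had lower means in all 4 comparisons too, at log2 changes of -1.81 to -0.36. Tm7sf2, a sterol reductase acting after lanosterol, read 3031 and 2941 in wildtype against 2773 and 2817 in Socs2-null liver at 0 h, 1532 and 1771 against 1612 and 1945 at 24 h, and 1585 and 1412 against 1922 and 1572 at 36 h. Again no array after surgery reached those at 0 h. The wildtype log2 changes were -0.85 ± 0.14 (adjusted p = 0.00196) and -0.99 ± 0.14 (adjusted p = 0.00112). The Socs2-null ones were -0.65 ± 0.14 (adjusted p = 0.00566) and -0.68 ± 0.14 (adjusted p = 0.00525). Lss, the cyclase that makes lanosterol, read 107 and 90.3 in wildtype against 105 and 131 in Socs2-null liver at 0 h, 52.4 and 56.9 against 47.5 and 64.9 at 24 h, and 68.7 and 69.2 against 75.7 and 128 at 36 h. The 24 h arrays of both genotypes lay below every 0 h array, and it was called there at -0.70 ± 0.20 (adjusted p = 0.0253) and -0.90 ± 0.20 (adjusted p = 0.00779). The 4 calls of Tm7sf2 held with each array left out. With the hybridization control covariate 3 of them were lost, that of Socs2-null liver at 24 h at -0.48 (adjusted p = 0.0829, of 0.00403 to 0.0829 over the 23 alternatives). The wildtype 36 h call of Sc5d ended without either wildtype 0 h array or wildtype 36 h replicate 2 (log2 changes -0.99 to -0.80, adjusted p = 0.0644 to 0.0849, of 0.00583 to 0.0849 over the 23 alternatives). The Socs2-null one ended without either Socs2-null 0 h array or Socs2-null 36 h replicate 1 (log2 changes -0.74 to -0.47, adjusted p = 0.107 to 0.184, of 0.00520 to 0.184 over the 23 alternatives). Lss lost its wildtype 24 h call without either wildtype 0 h array or either wildtype 24 h array (log2 changes -0.80 to -0.59, adjusted p = 0.0733 to 0.150, of 0.00300 to 0.150 over the 23 alternatives). It lost the Socs2-null one without Socs2-null 0 h replicate 2 (log2 change -0.76, adjusted p = 0.0703, of 0.00220 to 0.0703 over the 23 alternatives).

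Msmo1, the sterol methyl oxidase that starts the removal of methyl groups, read 3634 and 3386 in wildtype against 3076 and 3108 in Socs2-null liver at 0 h, 1611 and 2732 against 2682 and 2879 at 24 h, and 2410.0 and 2124 against 3302 and 4752 at 36 h. The second Socs2-null pool at 36 h was the brightest of the 12 arrays and the first wildtype pool at 24 h the dimmest. It was called in wildtype liver at 24 h, at -0.74 ± 0.22 (adjusted p = 0.0332), and its Socs2-null change at 36 h was 0.36 ± 0.22 (adjusted p = 0.296). Hsd17b7, which reduces the keto group left by demethylation, read 776 and 770.1 in wildtype against 669 and 755 in Socs2-null liver at 0 h, 653 and 524 against 765 and 995 at 24 h, and 1437 and 1112 against 1170.2 and 1664 at 36 h. The 36 h arrays of both genotypes stood above all 8 earlier arrays. It rose at 36 h by 0.70 ± 0.20 in wildtype (adjusted p = 0.0365) and 0.96 ± 0.20 in Socs2-null liver (adjusted p = 0.00652). A second Hsd17b7 probe set gave 0.67 and 0.71 there, and a much dimmer one -0.06 and -0.13. Sqle, squalene epoxidase and a rate-limiting step of this arm, read 964 and 879 in wildtype against 845 and 1004 in Socs2-null liver at 0 h, 570.2 and 920.3 against 1163 and 1532 at 24 h, and 1173 and 1007 against 1636 and 2144 at 36 h. It rose at 36 h in Socs2-null liver, by 1.01 ± 0.22 (adjusted p = 0.00903), and its wildtype change there was 0.24 ± 0.22 (adjusted p = 0.511). Ebp, a sterol isomerase, read 3809.8 and 3891 in wildtype against 3840.1 and 3639.7 in Socs2-null liver at 0 h, 2962 and 3082 against 2907 and 2932 at 24 h, and 3073 and 2109 against 2604 and 3197 at 36 h. All its later arrays were below those at 0 h, and it was called at 36 h in wildtype liver (-0.59 ± 0.16, adjusted p = 0.0267). Among these enzymes no call held with each array left out. In wildtype liver that of Msmo1 ended without either wildtype 0 h array or wildtype 24 h replicate 1 (log2 changes -0.79 to -0.36, adjusted p = 0.112 to 0.227, of 0.00832 to 0.227 over the 23 alternatives). The call of Ebp ended without either wildtype 0 h array or wildtype 36 h replicate 2 (log2 changes -0.61 to -0.32, adjusted p = 0.121 to 0.186, of 0.00364 to 0.402 over the 23 alternatives). The wildtype call of Hsd17b7 ended without either wildtype 0 h array, either wildtype 36 h array or either Socs2-null 0 h array (log2 changes 0.52 to 0.88, adjusted p = 0.0524 to 0.175, of 0.0230 to 0.175 over the 23 alternatives). The Socs2-null call of Hsd17b7 ended without Socs2-null 0 h replicate 1 (log2 change 0.87, adjusted p = 0.0578, of 0.00430 to 0.0589 over the 23 alternatives). That of Sqle ended without Socs2-null 0 h replicate 1 or Socs2-null 36 h replicate 2 (log2 changes 0.82 to 0.89, adjusted p = 0.0644 to 0.0753, of 0.00472 to 0.358 over the 23 alternatives).

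The other 4 enzymes of the sterol arm were called in no comparison, though in wildtype liver Fdft1 was called at 36 h without either wildtype 24 h array (-0.70, adjusted p = 0.0350 to 0.0353) and Dhcr7 without wildtype 36 h replicate 1 (-1.03, adjusted p = 0.0361). Fdft1, squalene synthase, read 1465 and 1420.3 in wildtype against 1412 and 1509 in Socs2-null liver at 0 h, 823 and 1548 against 1476 and 1345 at 24 h, and 996 and 778 against 1595 and 2406 at 36 h. Dhcr7, which carries out a last step to cholesterol, read 705 and 681 in wildtype against 696 and 714 in Socs2-null liver at 0 h, 409 and 719 against 737 and 689.8 at 24 h, and 566 and 331 against 811 and 1082 at 36 h. Both were near a single level at 0 h and spread widely after surgery, and both of their wildtype 36 h arrays were under both Socs2-null ones. Under 1 alternative each, Fdft1 was also called in wildtype liver at 24 h, and Cyp51 in Socs2-null liver at 36 h against 0 h. Cyp51, the lanosterol demethylase, had mean intensities of 823 ± 118, 755 ± 271 and 929 ± 300.4 at 0, 24 and 36 h in wildtype liver and 908 ± 153, 1022 ± 168 and 1632 ± 464 in Socs2-null liver (SD, n = 2). Nsdhl, a sterol dehydrogenase, had means of 1380.0 ± 3.83, 1009 ± 415 and 1111 ± 553 at 0, 24 and 36 h in wildtype liver and 1405 ± 122, 1099.8 ± 125 and 1699.9 ± 638 in Socs2-null liver (SD, n = 2). The SDs at 24 and 36 h in wildtype liver were as large as the differences between the times.

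In the mevalonate and isoprenoid arm, which supplies farnesyl and geranylgeranyl diphosphate, Aacs was the single enzyme called. Aacs, acetoacetyl-CoA synthetase, which feeds ketone bodies into lipid synthesis, read 237 and 242 in wildtype against 179 and 266 in Socs2-null liver at 0 h, 145 and 109 against 203 and 172 at 24 h, and 80.9 and 139 against 287 and 201 at 36 h. The wildtype arrays after surgery were all below the 0 h arrays of both genotypes, whereas the Socs2-null ones overlapped them. In wildtype liver Aacs changed by -0.85 ± 0.25 (adjusted p = 0.0303) and -1.06 ± 0.25 (adjusted p = 0.0180). In Socs2-null liver its log2 changes were -0.21 ± 0.25 (adjusted p = 0.579) and 0.13 ± 0.25 (adjusted p = 0.767). The call at 24 h ended without either wildtype 0 h array or either wildtype 24 h array (log2 changes -1.03 to -0.67, adjusted p = 0.0568 to 0.169, of 0.00326 to 0.169 over the 23 alternatives). The call at 36 h ended without either wildtype 0 h array or wildtype 36 h replicate 1 (log2 changes -1.07 to -0.72, adjusted p = 0.0949 to 0.112, of 0.0129 to 0.505 over the 23 alternatives). A second, much dimmer Aacs probe set gave 0.0051 and -0.20 in wildtype liver.

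Ggps1, which makes geranylgeranyl diphosphate, read 59.3 and 48.7 in wildtype against 54.3 and 60.0 in Socs2-null liver at 0 h, 48.0 and 42.1 against 64.1 and 62.5 at 24 h, and 70.5 and 65.8 against 67.5 and 72.5 at 36 h. Its wildtype 24 h arrays were the lowest of the 12, near their brightest negative controls of 40.46 and 41.75, and no comparison called it. Idi1, the isomerase of isopentenyl diphosphate, had mean intensities of 1942 ± 275, 1374 ± 427 and 1681 ± 596 at 0, 24 and 36 h in wildtype liver and 1969 ± 115, 1806 ± 186 and 2669 ± 756 in Socs2-null liver (SD, n = 2). Fdps, farnesyl diphosphate synthase, had means of 2734 ± 62.9, 2508 ± 835 and 1964 ± 1157 at 0, 24 and 36 h in wildtype liver and 2325 ± 219, 2202 ± 479.6 and 2998 ± 659 in Socs2-null liver. Mvk, mevalonate kinase, had means of 307 ± 23.5, 240.0 ± 77.5 and 219 ± 60.4 at 0, 24 and 36 h in wildtype liver and 253 ± 52.8, 217 ± 7.83 and 328 ± 84.7 in Socs2-null liver. Mvd, the decarboxylase of this arm, had means of 115 ± 2.48, 131 ± 24.5 and 87.5 ± 15.5 at 0, 24 and 36 h in wildtype liver and 95.0 ± 13.3, 135 ± 59.5 and 143 ± 24.3 in Socs2-null liver. The step before them, Hmgcs1, had means of 73.9 ± 35.3, 39.6 ± 4.01 and 80.0 ± 62.2 at 0, 24 and 36 h in wildtype liver and 30.1 ± 3.51, 59.2 ± 9.41 and 106 ± 44.5 in Socs2-null liver. Hmgcs1 was read by 1 dim probe set, under the brightest negative control on both Socs2-null arrays at 0 h and on 1 wildtype array at each of 24 and 36 h, so no fold is given for it. In Socs2-null liver all 7 genes of the arm had a higher mean at 36 h than at 0 h, and none was called. Other probe sets gave log2 changes there of -0.03 for Mvk, -0.03 for Aacs, 0.16 and -0.08 for Ggps1, 0.34 for Mvd and 0.29 for Idi1. Mvd was called there under 2 alternatives, and at 24 h in Socs2-null liver under 1. Without either wildtype 36 h array Hmgcs1 was called there (adjusted p = 0.0110 to 0.0115, of 5 alternatives that called it at 0.0110 to 0.0422).

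The 3 carriers fell in both genotypes at 24 h. Stard4, which moves cholesterol between membranes through the cytosol, read 935 and 924 in wildtype against 853 and 1011 in Socs2-null liver at 0 h, 311 and 369 against 416 and 397 at 24 h, and 652 and 578 against 494 and 763 at 36 h. Its 24 h arrays were the 4 lowest, and its 36 h arrays lay between these and the 0 h arrays. The wildtype log2 changes were -1.41 ± 0.18 (adjusted p = 8.24e-04) and -0.59 ± 0.18 (adjusted p = 0.0542). Those of Socs2-null liver were -1.16 ± 0.18 (adjusted p = 0.00152) and -0.58 ± 0.18 (adjusted p = 0.0460). A second Stard4 probe set gave -1.38, -0.72, -1.06 and -0.85, and another -0.57, -0.05, -0.15 and 0.23. Npc1 and Npc2 hand cholesterol out of the lysosome. Npc1 read 633 and 644 in wildtype against 724 and 869 in Socs2-null liver at 0 h, 355 and 342 against 404 and 391 at 24 h, and 453 and 507 against 402 and 400.3 at 36 h. All later arrays were below all 0 h arrays. The wildtype log2 changes were -0.84 ± 0.12 (adjusted p = 0.00144) and -0.40 ± 0.12 (adjusted p = 0.0513). Those of Socs2-null liver were -0.97 ± 0.12 (adjusted p = 5.39e-04) and -0.96 ± 0.12 (adjusted p = 5.92e-04). Npc2 read 943 and 862 in wildtype against 944 and 987 in Socs2-null liver at 0 h, 624 and 671 against 687 and 638 at 24 h, and 700.0 and 625 against 687 and 666 at 36 h. It was below its 0 h arrays on every later array, with called log2 changes of -0.47, -0.44, -0.53 and -0.50 in the same order (adjusted p = 0.0160, 0.0305, 0.00835 and 0.0127). The wildtype 36 h changes of Npc1 and Stard4 lay near the threshold and were called under 7 (adjusted p = 0.0327 to 0.0489) and 6 (0.0166 to 0.0499) of the 23 alternatives, among them without either Socs2-null 24 h array for Npc1 and without either Socs2-null 36 h array for Stard4. The called falls of Npc1 and the 24 h falls of Stard4 held with each array left out. Stard4 lost its 36 h call without either wildtype 0 h array, either wildtype 24 h array, either wildtype 36 h array, either Socs2-null 0 h array or Socs2-null 36 h replicate 1 (log2 changes -0.71 to -0.28, adjusted p = 0.0509 to 0.314, of 0.00741 to 0.314 over the 23 alternatives). Npc2 lost its Socs2-null 36 h call without either Socs2-null 0 h array (log2 changes -0.53 to -0.47, adjusted p = 0.0614 to 0.0968, of 0.00675 to 0.215 over the 23 alternatives). The 24 h calls of Npc2 ended in wildtype liver without either wildtype 0 h array or wildtype 24 h replicate 1 (log2 changes -0.53 to -0.40, adjusted p = 0.0662 to 0.128, of 0.00918 to 0.128 over the 23 alternatives). The Socs2-null one ended without Socs2-null 0 h replicate 2 (log2 change -0.50, adjusted p = 0.0692, of 0.00462 to 0.0692 over the 23 alternatives). Its wildtype 36 h call ended without either wildtype 0 h array, wildtype 36 h replicate 2 or either Socs2-null 0 h array (log2 changes -0.50 to -0.36, adjusted p = 0.0529 to 0.207, of 0.0183 to 0.339 over the 23 alternatives).

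**Figure D3:**
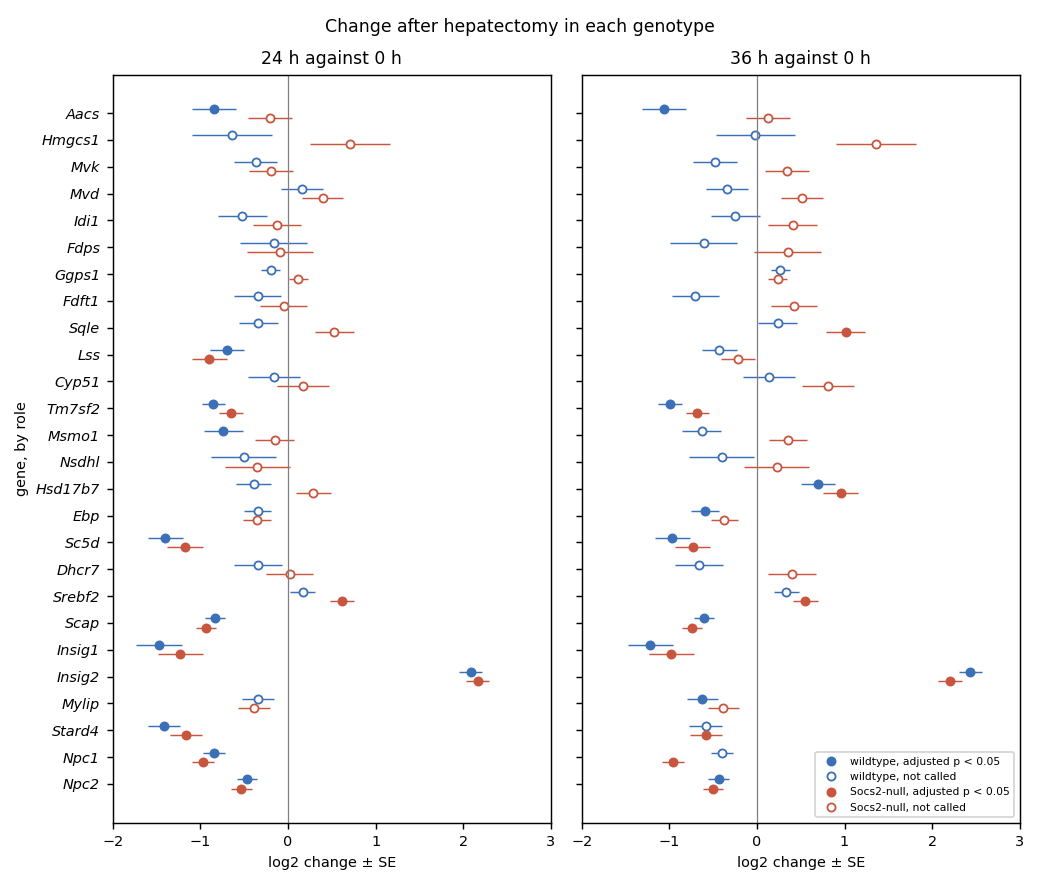
Log2 change from 0 h of each of the 26 genes at 24 h and at 36 h, wildtype and Socs2-null, with bars of 1 SE of the limma fit and filled points for genes called at an adjusted p under 0.05. Insig2 stands alone at 2.08 to 2.44, and the 3 carriers (Stard4, Npc1, Npc2) lie below 0.

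At 24 h, 9 genes were called in both, all in 1 direction, of 11 in wildtype and 10 in Socs2-null liver: Lss, Tm7sf2, Sc5d, Insig1, Insig2, Stard4, Scap, Npc1 and Npc2. At 36 h, 7 were called in both, of 10 and 11. Over all genes, 65.6% of the wildtype and 69.9% of the Socs2-null calls were shared at 24 h, and 72.1% and 54.8% at 36 h. Tm7sf2, Sc5d, Insig1, Insig2, Scap and Npc2 were called in all 4 comparisons with 0 h, and 10 genes in none (Hmgcs1, Mvk, Mvd, Idi1, Fdps, Fdft1, Cyp51, Nsdhl, Dhcr7 and Ggps1). Whether the response itself differed was tested as the difference between genotypes in the change from 0 h. limma called no member at 24 h (all genes 0%) or at 36 h (0.00585%). At an unadjusted p under 0.05 there were 3 members at 24 h, against 3.78% of all genes, and 8 at 36 h, against 3.74%. The largest of these at 36 h were Aacs (1.19 ± 0.35), Fdft1 (1.12 ± 0.38) and Dhcr7 (1.06 ± 0.38), all at adjusted p = 0.999, and Npc1 went the other way (-0.55 ± 0.18, adjusted p = 0.999).

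From 24 to 36 h no member was called in either genotype. In wildtype liver 0.216% of all genes rose and 0.0234% fell, and in Socs2-null liver 0% and 0.00585%. The members' median log2 change was 0.20 in wildtype liver, with 17 of 26 higher, and 0.41 in Socs2-null liver, with 23 of 26 higher. Without wildtype 24 h replicate 1 the wildtype median was -0.03. At an unadjusted p under 0.05, limma gave 6 members in wildtype and 5 in Socs2-null liver, against 14.9% and 7.18% of all genes. Hsd17b7 had the smallest adjusted p, 0.0576 in wildtype liver at 1.09 ± 0.20, and was 0.67 ± 0.20 in Socs2-null liver (adjusted p = 0.594). The wildtype value was called without either Socs2-null 24 h array or either Socs2-null 36 h array (adjusted p = 0.0280 to 0.0392). Stard4 was 0.83 ± 0.18 (adjusted p = 0.104, called at 0.0421 to 0.0423 without either Socs2-null 36 h array) and 0.58 ± 0.18 (adjusted p = 0.621).

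Between genotypes, most synthesis enzymes were brighter in Socs2-null liver after surgery, but none passed the adjusted threshold. At 0 h the median log2 difference of the 26 genes was 1.578e-04, with 13 higher and 1 under an unadjusted p of 0.05 (4.95% of all genes). That 1 was Npc1, at 0.31 ± 0.12 (adjusted p = 0.944). At 24 h the median was 0.26 with 21 of 26 higher, and at 36 h 0.37 with 23 of 26 higher, where the median of all genes was -0.02 and -0.0081. limma called 0 of the 26 at each time, also under all 23 alternatives, against 0%, 0.0117% and 0.0234% of all genes at 0, 24 and 36 h, and 0 averaged over the 3 times (0.0292%). Unadjusted, 4 members were under 0.05 at 24 h (8.24% of all genes), 10 at 36 h (6.44%) and 9 averaged (10.2%). Both Socs2-null arrays were above both wildtype arrays for 4 members at 0 h, 8 at 24 h and 10 at 36 h, where the shares of all genes were 13.9%, 15.0% and 15.2%. They were below for 7, 1 and 2 members, against 27.9%, 19.1% and 17.6% of all genes. At 36 h all 7 genes of the mevalonate arm were higher, with a median log2 difference of 0.61, and all 11 of the sterol arm, with 0.65. Other probe sets gave -0.25 and -0.11 for Sc5d and 0.0077 and -0.07 for Hsd17b7 there. Those of Mvk, Mvd, Idi1, Ggps1, Aacs, Cyp51 and Msmo1 were all higher. The 5 regulators had a median of 0.19 with 3 higher, and 2 of the 3 carriers were higher with a median of 9.017e-04.

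At 36 h the smallest p between genotypes belonged to Fdft1 (1.14 ± 0.27, adjusted p = 0.375), Aacs (1.06 ± 0.25, adjusted p = 0.375), Dhcr7 (1.08 ± 0.27, adjusted p = 0.440), Msmo1 (0.80 ± 0.22, adjusted p = 0.507) and Sqle (0.78 ± 0.22, adjusted p = 0.531). For each of the 5 both Socs2-null arrays were above both wildtype arrays, as the values above show. At 24 h the smallest p belonged to Sqle (0.87 ± 0.22, adjusted p = 0.433), Ggps1 (0.38 ± 0.11, adjusted p = 0.443), Srebf2 (0.42 ± 0.14, adjusted p = 0.486), Hsd17b7 (0.56 ± 0.20, adjusted p = 0.509) and Aacs (0.52 ± 0.25, adjusted p = 0.626). Other Ggps1 probe sets gave -0.24 and 0.02 there, and a second Aacs probe set 0.12 at 36 h. Sqle also had the smallest adjusted p over the 3 times averaged, at 0.55 ± 0.13 (adjusted p = 0.220). Insig2 and Npc1 were the 2 genes with both Socs2-null arrays lower at 36 h, at log2 differences of -0.25 and -0.25.

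**Figure D4:**
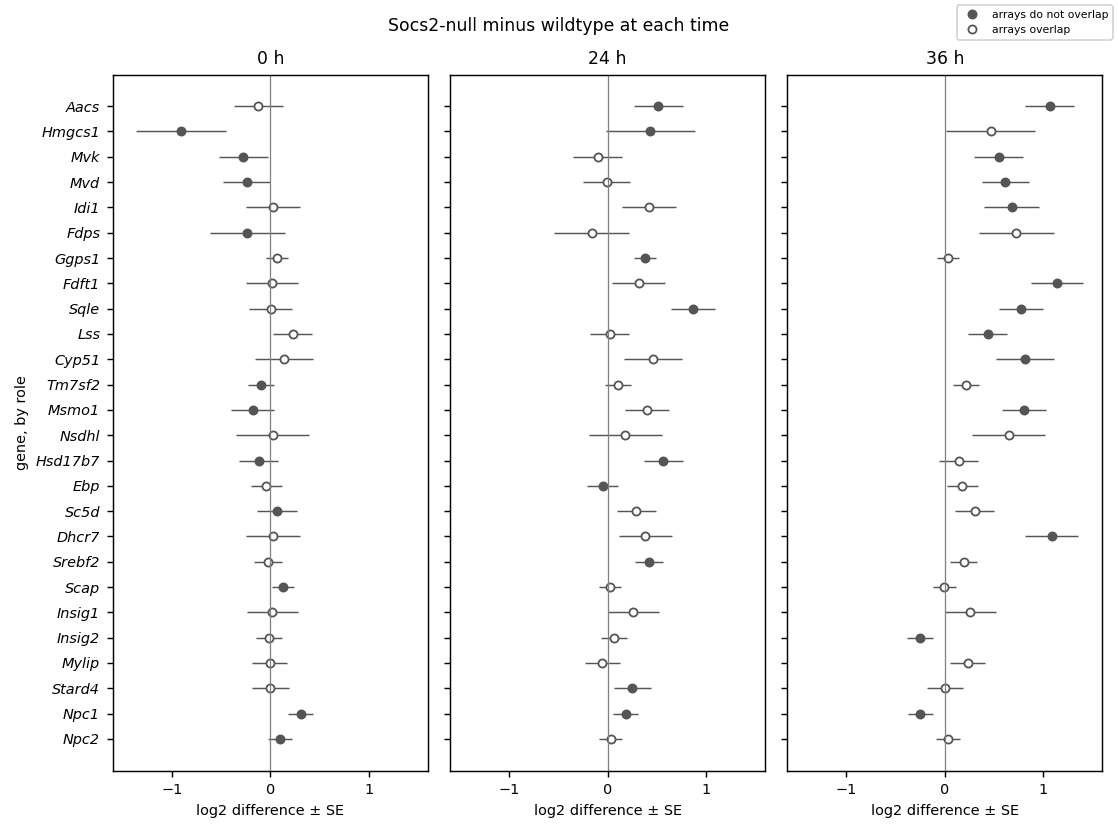
Log2 difference, Socs2-null minus wildtype, of the 26 genes at 0, 24 and 36 h, with bars of 1 SE of the limma fit and genes ordered by role. Filled points are genes whose 2 Socs2-null arrays lie wholly above or below the 2 wildtype arrays. With the probe set used per gene, the enzymes of both synthesis arms lie to the right of 0 at 36 h. No point passed an adjusted p of 0.05.

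The 2 pools of a group differed over the synthesis enzymes as a whole. In wildtype liver the median of the 18 enzymes was 0.53 higher in the second pool than in the first at 24 h, with 14 of 18 higher, and the difference was -0.34 at 36 h, with 4 of 18 higher. In Socs2-null liver the second pool at 36 h was 0.50 higher, with 16 of 18 higher. At 0 h the shifts were smaller, with a median of -0.05 and 4 of 18 higher in wildtype liver and 0.12 and 15 of 18 higher in Socs2-null liver. In Socs2-null liver at 24 h the median was -0.05, with 8 of 18 higher. Socs2-null 36 h replicate 2 was the brightest of the 12 arrays for 12 of the 18 enzymes and 13 of the 26 genes, against 5.93% of all genes. Wildtype 24 h replicate 1 was the dimmest for 10 of the 26 (8.72% of all genes) and wildtype 36 h replicate 2 for 7 (6.35%). Without wildtype 24 h replicate 1, 16 members in place of 21 were higher in Socs2-null liver at 24 h, with a median log2 difference of 0.02. Without wildtype 36 h replicate 2, 17 in place of 23 were higher at 36 h (median 0.19), and without Socs2-null 36 h replicate 2, 19 (median 0.18).

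**Figure D5:**
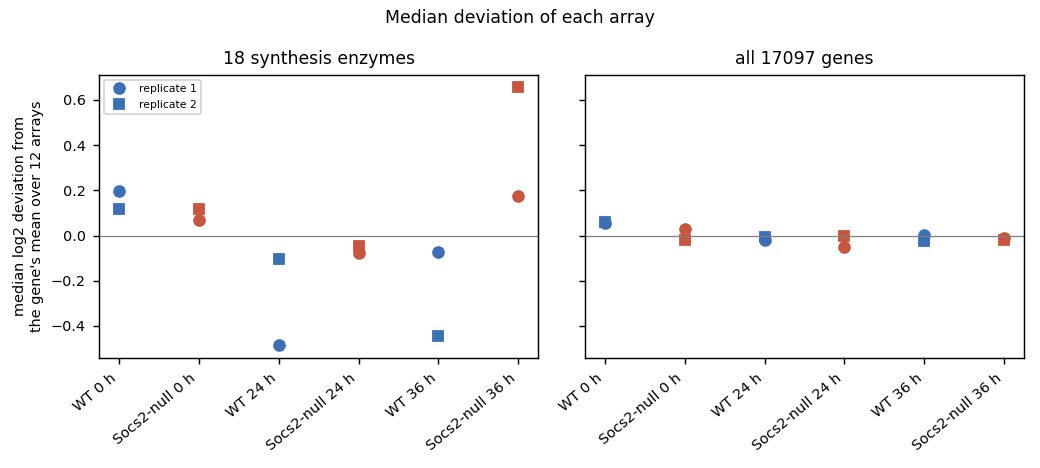
Median log2 deviation from each gene's mean over the 12 arrays, 1 point per array (circle replicate 1, square replicate 2, WT for wildtype), by genotype and hours after hepatectomy, for the 18 synthesis enzymes (left) and all 17097 genes (right). The enzyme medians lie at 0.07 to 0.20 at 0 h. In the 2 wildtype pools they are -0.49 and -0.11 at 24 h and -0.07 and -0.45 at 36 h. In the 2 Socs2-null pools they are -0.08 and -0.04 at 24 h and 0.18 and 0.66 at 36 h. Those of all genes stay within -0.05 to 0.06.

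Outside the 30 genes, 17 of 27 further sterol genes were measured. Of these, 3 rose and 3 fell at 24 h and 1 rose and 2 fell at 36 h in wildtype liver, and 1 rose and 3 fell, then 2 rose and 4 fell, in Socs2-null liver. Over all genes, 10.2% rose and 15.6% fell at 24 h and 5.69% and 9.50% at 36 h in wildtype liver, and 10.8% and 13.5%, then 9.84% and 10.1%, in Socs2-null liver. The deepest falls were those of Abcg5 and Abcg8, the paired exporter that puts sterols into bile. Abcg8 read 412 and 406 in wildtype against 396 and 416 in Socs2-null liver at 0 h, 88.6 and 124 against 105 and 89.1 at 24 h, and 142 and 189.6 against 114 and 118 at 36 h. No array after surgery reached those at 0 h. In wildtype liver Abcg8 changed by -1.81 ± 0.17 (adjusted p = 1.16e-04) and -1.24 ± 0.17 (adjusted p = 0.00102). In Socs2-null liver the values were -1.90 ± 0.17 (adjusted p = 5.37e-05) and -1.68 ± 0.17 (adjusted p = 1.14e-04). Abcg5 gave -1.40 (adjusted p = 0.00813), -0.46 (adjusted p = 0.326), -1.77 (adjusted p = 0.00235) and -1.17 (adjusted p = 0.0197) in the same order. Lcat, which esterifies plasma cholesterol, fell in wildtype liver at 24 h (-0.44) and 36 h (-0.44) and in Socs2-null liver at 36 h (-0.57). Lrp1, a remnant receptor, fell in Socs2-null liver at 24 h (-0.62) and 36 h (-0.73). Dhdds, which extends farnesyl diphosphate towards dolichol, rose at 24 h in wildtype (0.65) and Socs2-null liver (0.73) and at 36 h in the latter (0.58). Abcg1, a cholesterol exporter, rose in wildtype liver at 24 h (0.48) and in Socs2-null liver at 36 h (0.51). In wildtype liver the sterol carrier Osbp rose at 24 h (0.51), and Mbtps2, a protease that cuts SREBPs, at 36 h (0.47). The calls of these further genes were not run through the alternatives or compared with other probe sets. Between genotypes at 36 h the smallest p were those of Dhdds (0.45 ± 0.16, adjusted p = 0.642), Abcg8 (-0.45 ± 0.17, adjusted p = 0.657) and Lipa, the lysosomal lipase (-0.41 ± 0.19, adjusted p = 0.776).

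Many sterol genes are known to cycle over the day, and the hour of harvest is not given in the sources used here. Dbp, an output gene of the circadian clock, read 833 to 1147 on the 4 arrays at 0 h, 29.8 to 47.2 at 24 h, 125 and 234 in wildtype at 36 h and 33.2 and 39.0 in Socs2-null liver at 36 h. The genotype difference of Dbp at 36 h was called (-1.85 ± 0.24, adjusted p = 0.0333), as was that of Cry1, a clock repressor (1.07, adjusted p = 0.0270). The low Dbp readings lay near the brightest negative controls, which were 32.96 to 41.75 at 24 h and 33.78 and 33.98 in Socs2-null liver at 36 h. The sizes of the Dbp changes are therefore limited by signal near the negative controls. Kupffer cell markers summed to 5663 to 6786 at 0 h, 5669 to 7877 at 24 h and 6466 to 8646 at 36 h. Single Kupffer markers moved in opposite directions, at log2 changes of -0.66 to 2.82 at 24 h and -0.86 to 3.06 at 36 h in wildtype liver. In Socs2-null liver these were -0.90 to 3.15 and -0.85 to 3.19. The median of the 10 markers was negative in all 4 comparisons with 0 h. Sinusoidal endothelial markers summed to 2593 to 2827 at 0 h, 2328 to 2516 at 24 h and 1731 to 2098 at 36 h. The erythroid marker Alas2 read 1042 to 1252 at 0 h, 406 to 551 at 24 h and 334 to 532 at 36 h, and was called lower in all 4 comparisons with 0 h (-1.43 to -1.21). Pancreas markers summed to 1067 to 1166, 397 to 494 and 399 to 512, and Cela1 among them was called lower in all 4 (-1.59 to -1.45). The part of the clock and of cell makeup in the sterol results was not tested.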

How the data were processed

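Liver RNA of 12 pools was read on 1-colour Affymetrix arrays. The authors deposited 1 linear intensity per probe set and array; no label or header says how background, summary and scaling were handled (not given in the sources used here). Of 45141 probe sets, 28898 were annotated to 1 gene, 551 to several and 15588 to none, and 104 were controls; the annotation can be old. Per gene the probe set with the highest mean log2(intensity + 16) was kept. A model with 1 mean per group was fitted with limma 3.58.1 in R 4.3.3 (eBayes with trend and robust, statmod 1.5.0; 6 residual degrees of freedom), with Benjamini-Hochberg adjustment over 17097 genes and a threshold of 0.05, and was tested on simulated data. The simulated noise was independent between genes, so the test did not cover shared shifts such as those of the synthesis enzymes between pools. The pseudocount understates changes of dim genes, and only 2 arrays per group limit the precision. Genes with any called comparison, and the 5 with the smallest p between genotypes at 24 and 36 h and against 0 h in wildtype liver, are given by array. The members and lists were chosen with earlier results of these data known. Alternatives were quantile normalization, centring, other pseudocounts (1 and 64), dropping the dimmest 25% of genes, other probe set rules, plain eBayes, a replicate term, a hybridization control covariate, fits on just the groups compared, and each array left out in turn. Promoters came from RefSeq, without windows for 6 genes.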

Additional observations from a re-analysis of the deposited data

How the results depend on the processing

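For 52 gene and comparison pairs (each called one, and the 5 with the smallest p at 24 and 36 h between genotypes and against 0 h in wildtype liver), 1082 of 1196 values over 23 alternatives kept their direction and side of the threshold, 114 lost the call and 0 changed sign. The pairs between genotypes were not called in the first place, so they had no call to lose. Another 19 pairs that were not called passed the threshold under at least 1 alternative, 49 values in all, led by Npc1 (7 alternatives), Stard4 (6) and Msmo1 (4) in wildtype liver at 36 h against 0 h by Hmgcs1 (5) in Socs2-null liver at 36 h and by Hsd17b7 (4) in wildtype liver from 24 to 36 h. Centring the arrays left 7 members called in wildtype liver at 24 h. The hybridization control covariate left 2 called at 36 h against 0 h in each genotype, with medians of -0.74 (wildtype) and -0.30 (Socs2-null). It also gave a median of -0.47 for the Socs2-null change from 0 to 24 h and, from 24 to 36 h, of -0.035 for wildtype pools and 0.15 for Socs2-null pools. The cause was not tested. Leaving out each array gave medians between genotypes of 0.018 to 0.35 at 24 h and 0.18 to 0.71 at 36 h, and 16 to 23 and 17 to 23 members higher, counts chosen after seeing the data. Against 0 h it gave 7 to 12 calls and medians of -0.70 to -0.34 in wildtype liver at 24 h, and 2 to 11 calls and -0.64 to -0.34 at 36 h. In Socs2-null liver it gave 6 to 12 calls at 24 h, and 4 to 12 calls and medians of 0.11 to 0.59 at 36 h. From 24 to 36 h it gave 0 to 2 calls and medians of -0.028 to 0.35 in wildtype and medians of 0.18 to 0.66 in Socs2-null liver. The medians of the difference in response were 0.0091 to 0.45 at 24 h and 0.25 to 0.59 at 36 h. Replicate numbers did not pair the pools, with correlations of -0.50 to 0.35 over 15 pairs of groups and 3 above 0.1. With the replicate block 9 members in place of 10 were called in wildtype liver at 36 h, Hsd17b7 being lost (adjusted p = 0.0502, of 0.0230 to 0.175 over the alternatives), and no other call changed. Of dim genes, Hmgcs1 and, in wildtype liver at 24 h, Ggps1 were limited by signal near the negative controls.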
